A study of Mus musculus with 2 samples.

Results

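The S100 genes encode small calcium sensors, and 7 of them, S100a1, S100a4, S100a6, S100a8, S100a9, S100a10 and S100a11, were followed here across the cell types of obese and calorie-restricted visceral adipose tissue (VAT). They were taken by symbol from the 27998 genes of the tables, which hold 17 S100 genes in all. Each symbol matched 1 row, and each member had UMIs in both libraries. Single CD45+ cells of perigonadal VAT from male C57BL/6J mice were compared between 1 obese and 1 calorie-restricted (CR) library, made with a droplet kit that counts unique molecular identifiers (UMIs) at the 3′ end of transcripts. By the study's methods, both groups were bought at 6 weeks of age, rested for 2 weeks and fed for 24 weeks on a diet with 60% of its energy from fat and 0.3% cholesterol, with 5 mg/kg of an antisense oligonucleotide against the LDL receptor each week. The CR mice then ate 70% of ad libitum intake for 2 weeks. The label of the CR sample speaks of life-long restriction, whereas the methods describe restriction after obesity, and the second description is used here. How many mice were pooled in each library was not stated in the sources used here, and with 1 library per condition no difference between obese and CR has a replicate check.

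S100 proteins bind calcium through paired EF-hand loops and, once loaded, expose a surface that grips other proteins. S100a8 and S100a9 join as calprotectin, the most abundant cytosolic protein of neutrophils, which is also made by inflammatory monocytes and can signal through Toll-like receptor 4 (Tlr4) and the receptor for advanced glycation end products (Ager). S100a4 binds non-muscle myosin (Myh9) and is known for cell motility, S100a6 binds calcyclin-binding protein (Cacybp), S100a10 is held in a complex with annexin A2 (Anxa2) at the membrane, S100a11 binds annexin A1 (Anxa1), and S100a1 is best known from heart and skeletal muscle.

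All 7 members lie on chromosome 3 of the mouse (GRCm38, RefSeq coordinates), in 2 groups that are 2825 kb apart. The first runs from S100a1 (90511034 to 90514330) through S100a4 (90603770 to 90606045), S100a6 (90612894 to 90614414) and S100a8 (90669071 to 90670034) to S100a9 (90692630 to 90695721). The second holds S100a11 (93520496 to 93526288) and S100a10 (93555117 to 93564645). S100a4 and S100a6 are 6.85 kb apart with S100a5 between them, S100a8 and S100a9 are 22.6 kb apart on opposite strands, and S100a11 and S100a10 are 28.8 kb apart on the same strand. S100a1 overlaps the start of S100a13, on the other strand, by 98 bases at the 5′ ends of both genes.

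RefSeq promoter sequences of the same build matched 6 of the 7 members. The 250 bases before the start are shown for S100a8 and S100a9, which were high together in neutrophils, and for S100a4 and S100a11, which were lower together in CR phagocytic macrophages. They were searched on both strands for the TATA box (TATAAA), a C/EBP motif (TTGCNNAA, where N is any base), an AP-1 motif (TGANTCA) and an ETS core (AGGAAG, or its reverse complement CTTCCT), with no overlap between motifs in the windows shown. Capitals mark the matches:
S100a8, chr3:90668821-90669070, plus strand: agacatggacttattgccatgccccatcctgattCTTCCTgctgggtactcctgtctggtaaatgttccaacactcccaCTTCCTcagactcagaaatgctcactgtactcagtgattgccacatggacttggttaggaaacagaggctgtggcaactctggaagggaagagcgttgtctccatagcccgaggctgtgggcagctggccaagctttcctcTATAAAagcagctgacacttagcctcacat
S100a9, chr3:90695722-90695971, minus strand: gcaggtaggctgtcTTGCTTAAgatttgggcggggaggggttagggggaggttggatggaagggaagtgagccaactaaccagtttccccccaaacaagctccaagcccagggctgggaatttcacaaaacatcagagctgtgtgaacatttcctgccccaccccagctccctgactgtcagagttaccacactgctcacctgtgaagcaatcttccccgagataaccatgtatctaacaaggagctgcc
S100a4, chr3:90603520-90603769, plus strand: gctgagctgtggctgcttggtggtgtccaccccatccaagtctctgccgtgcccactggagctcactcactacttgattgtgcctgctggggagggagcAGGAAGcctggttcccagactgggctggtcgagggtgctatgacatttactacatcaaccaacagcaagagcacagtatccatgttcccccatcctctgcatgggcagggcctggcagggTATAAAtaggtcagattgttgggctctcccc
S100a11, chr3:93520246-93520495, plus strand: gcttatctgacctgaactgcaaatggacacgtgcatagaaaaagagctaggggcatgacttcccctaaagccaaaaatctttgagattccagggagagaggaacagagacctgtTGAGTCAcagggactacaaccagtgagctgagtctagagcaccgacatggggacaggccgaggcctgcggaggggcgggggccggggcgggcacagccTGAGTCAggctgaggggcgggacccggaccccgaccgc

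A TATA box began 30 bases before the start of S100a8 and 31 bases before that of S100a4, and 12.4% of 32851 promoter windows of this length held one. The C/EBP letters were found before S100a9 and in 9.56% of all windows. S100a11 held 2 AP-1 matches, which begin 136 and 38 bases before its start, against 6.75% of all windows with at least 1. The ETS core, found in 29.5% of all windows, stood at 1 place before S100a4 and at 2 places before S100a8. These are matches of letters and not tested sites.

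The obese library held 5795 cell barcodes and 42948242 UMIs, the CR library 3562 and 19696476, with medians of 6379 and 4335 UMIs per barcode. After filters on mitochondrial share and UMI total, 5262 obese and 2987 CR cells remained. Of these 8249 cells, 7064 (85.6%) were gated to a class by marker lists without S100 genes, so that no S100 level entered the gate, and 1015 lay within 0.1 of one of its limits. A total of 28 barcode sequences occurred in both libraries. Classes without Ptprc, which encodes CD45, were present in spite of the sort: at least 1 Ptprc UMI was seen in 13.2% of fibroblasts and 14.8% of endothelial cells of the CR library, against 83.7% of its T cells. The level of a gene in a class is given as CPM, its UMIs per 1000000 UMIs summed over the cells of that class, with an exact 95% Poisson interval in parentheses where given, and intervals cover counting error only. A summed level cannot tell more transcript per cell from more cells with the transcript, so shares of cells are given as well.

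**Figure D1:**
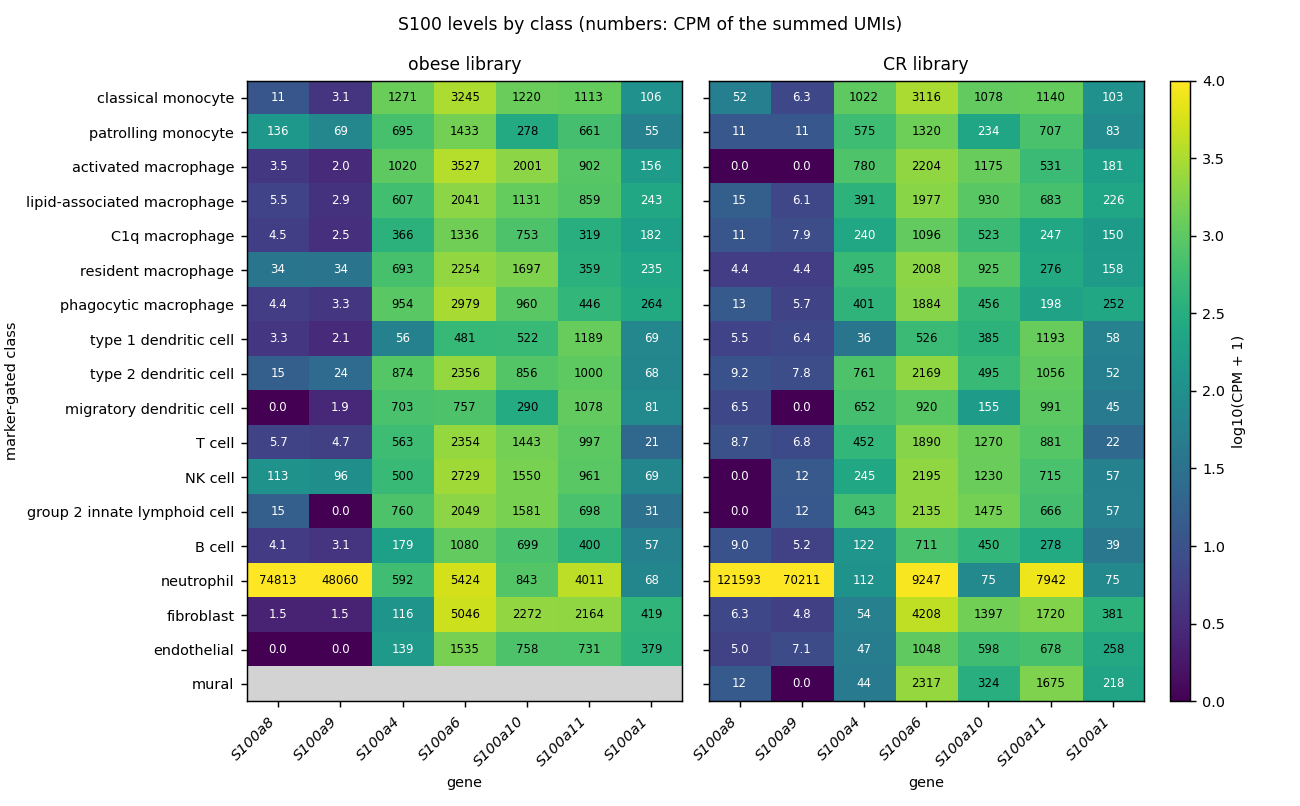
Level of each member in the marker-gated classes of the obese and CR libraries. Rows are classes, columns are genes, colour is log10(CPM + 1) and the printed number is CPM; grey marks a class with fewer than 8 cells. S100a8 and S100a9 are at 48060 CPM or more in neutrophils and at most 136 CPM in the other classes shown, and S100a4 is at 56.5 CPM or less in type 1 dendritic cells of both libraries.

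The calprotectin genes were high in neutrophils and near background in most other classes. S100a8 reached 74813 CPM (95% interval 72275 to 77416) in the 8 obese neutrophils and 121593 CPM (117455 to 125839) in the 11 CR neutrophils, and S100a9 reached 48060 CPM (46030 to 50155) and 70211 CPM (67076 to 73456). Together the pair made up 12.3% of all UMIs of obese neutrophils and 19.2% of those of CR neutrophils. Of the UMIs of the pair in all kept cells, 85.6% in obese and 94.5% in CR were in this class. Both genes were found in 7 of the 8 obese and in all 11 CR neutrophils, and the levels per cell spread widely, from 0 to 2161 S100a8 UMIs per 10000 in obese (median 955) and from 165 to 1972 in CR (median 1262). The ranges of the obese and CR neutrophils overlapped. Graph clusters placed 6 of the 8 obese and all 11 CR gated neutrophils in a neutrophil cluster, so the obese spread may include other cells. Neutrophils were too few for a ratio between the libraries.

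Outside neutrophils, S100a8 was at or below 15.4 CPM in 14 of the 17 obese classes with at least 20 cells, cycling and erythroid cells left aside. The exceptions were patrolling monocytes (136 CPM), NK cells (113 CPM) and resident macrophages (34.5 CPM). In obese NK cells, 1 of 168 cells held 97.9% of the UMIs of the pair. In obese patrolling monocytes 2 of 119 cells held 89.4%, and in obese resident macrophages 1 of 186 cells held 92.0%. These levels thus rest on 1 or 2 cells each. Over all classes, 7 obese cells and no CR cell outside the neutrophil class carried 8 or more UMIs of the pair, and 3 of those 7 were among the 5% of cells with the highest doublet scores. Without those 7 cells, S100a8 was at 14 CPM in obese patrolling monocytes and at 4.30 CPM in obese NK cells. The limit of 8 was set with these values in view.

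Classical monocytes, the Ly6c2-high cells that enter tissue from blood, are known to carry S100a8 in blood. In the gated class, its own markers summed to a median of 66.8 UMIs per 10000 in obese and 64.6 in CR. The C1q macrophage list summed to 65.9 and 51 there, and to 483 and 513 in C1q macrophages. That list was at 63.9 and 52.7 in patrolling monocytes and at 10.2 and 10.8 in type 2 dendritic cells. How far the gated class matches blood monocytes was not tested. The cells gated as classical monocytes had little S100a8 in VAT. S100a8 was counted 14 times in 185 obese cells (10.9 CPM, 5.95 to 18.3) and 33 times in 74 CR cells (52.3 CPM, 36.0 to 73.4). A UMI of S100a8 was found in 6.49% of obese classical monocytes (exact binomial 95% interval 3.40 to 11.1) and in 23.0% of CR ones (14 to 34.2). B cells, which should lack the gene, had it in 2.00% (0.548 to 5.04) and 3.07% (1.24 to 6.22) of cells, where the median cell had 3818 and 2807 UMIs, whereas the median classical monocyte had 6903 and 8676. After thinning every cell to 1500 UMIs, which left out no cell, S100a8 was found in 2.70% and 6.76% of obese and CR classical monocytes and in 1.5% and 1.32% of B cells. In CPM, the intervals of obese classical monocytes (10.9 CPM) and obese B cells (4.13 CPM, 1.13 to 10.6) overlapped, and those of CR classical monocytes and CR B cells (9.02 CPM, 3.63 to 18.6) did not. With graph clusters in place of the gate, obese classical monocytes held 91 S100a8 UMIs (40.5 CPM) and CR ones 41 (33.5 CPM). The order of the libraries thus depends on the gate. In the gated cells S100a9 did not follow: it was counted 4 times in each library of classical monocytes (3.11 and 6.34 CPM). Over 13 other processing choices its log2 ratio of CR to obese ran from -0.70 to 1.42. S100a8 made up 60.9% (59.6 to 62.2) of the UMIs of the pair in obese neutrophils and 63.4% (62.1 to 64.7) in CR neutrophils, and 89.2% (74.6 to 97.0) in CR classical monocytes, where the interval did not reach the share in neutrophils and 3 cells held 57.6% of the S100a8 UMIs. In obese classical monocytes it was 77.8% (52.4 to 93.6), which overlapped the share in neutrophils. In phagocytic macrophages of CR the share was 69.0% (55.5 to 80.5), and in T cells 55.0% (31.5 to 76.9) and 56.2% (29.9 to 80.2), all overlapping that of neutrophils.

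**Figure D2:**
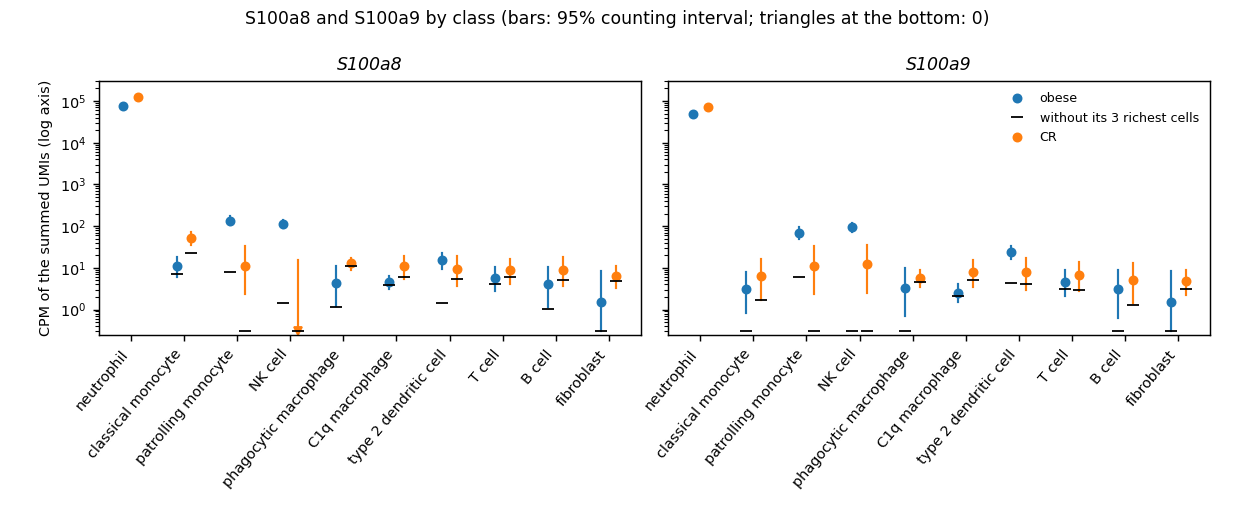
S100a8 and S100a9 in 10 classes of both libraries, as CPM of the summed UMIs on a log axis. Points are levels, coloured bars are 95% Poisson intervals, black ticks, drawn outside neutrophils, are the level without the 3 cells that hold most UMIs of the gene (at the bottom of the axis where none is left), and a triangle marks a level of 0. In obese NK cells the S100a8 level falls from 113 to 1.45 CPM without its 3 richest cells, whereas in CR classical monocytes it falls from 52.3 to 23.2 CPM.

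The receptors of the pair had few UMIs. Tlr4 was at 22.7 CPM in obese resident macrophages, 20.1 CPM in obese lipid-associated macrophages and 15.3 CPM in obese C1q macrophages, and at 3.34 CPM in obese type 1 dendritic cells, 4.13 CPM in B cells and 2.08 CPM in T cells. In CR it was at 25.8 CPM in C1q macrophages and 20.6 CPM in classical monocytes. Ager was at 0.546 CPM over all kept obese cells and 1.42 CPM over all kept CR cells, with its highest level, 37.4 CPM, in the 32 CR mural cells.

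S100a4, S100a6, S100a10 and S100a11 were found in every leukocyte class, and each had its own order over the classes with at least 20 cells. S100a4, the myosin-binding member, was highest in classical monocytes of both libraries, with 1271 CPM (1211 to 1335) in the obese and 1022 CPM (945 to 1104) in the CR library, and was found in 97.8% and 97.3% of these cells. Activated macrophages (Retnla, Ear2 and Fn1) followed in obese with 1020 CPM, phagocytic macrophages (Fcgr4, Cd72 and Axl) with 954 CPM and type 2 dendritic cells (Cd209a) with 874 CPM, each with an interval that overlapped that of the next. In CR, type 2 dendritic cells (761 CPM), migratory dendritic cells (652 CPM) and group 2 innate lymphoid cells (643 CPM) came next. C1q macrophages held 366 CPM (352 to 380) in obese and 240 CPM (211 to 272) in CR. S100a4 was low in type 1 dendritic cells, the cross-presenting lineage, with 56.5 CPM (48.6 to 65.2) in obese and 35.5 CPM (25.3 to 48.6) in CR, in obese plasmacytoid dendritic cells (52.4 CPM from 8 UMIs), and in B cells (179 and 122 CPM) and fibroblasts (116 and 54.3 CPM), although the gene is also named fibroblast-specific protein 1.

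The dendritic cells were thus divided by S100a4. Type 1 cells had a UMI of it in 27.4% of obese and 25.7% of CR cells and type 2 cells in 98.9% and 92.4%, with type 1 cells the more deeply sequenced (medians of 10348 and 10875 UMIs against 8005 and 8227). After thinning, the shares were 6.13% and 5.94% in type 1 cells and 71.4% and 58.7% in type 2 cells. S100a6 had the same split, at 481 and 526 CPM in type 1 cells and 2356 and 2169 CPM in type 2 cells. S100a11 differed less between the types: it was at 1189 CPM in obese type 1 and 1000 CPM in obese type 2 cells, and at 1193 and 1056 CPM in CR, with intervals that overlapped in CR and not in obese. Migratory dendritic cells shared S100a4 with type 2 cells (703 CPM in obese, 652 CPM in CR) but had little S100a10 (290 and 155 CPM).

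Apart from neutrophils, S100a6 was highest in fibroblasts. They held 5046 CPM in obese and 4208 CPM in CR, with a UMI in every fibroblast of both libraries, and the 32 CR mural cells held 2317 CPM. Among leukocytes other than neutrophils it was highest in obese activated macrophages (3527 CPM) and in classical monocytes (3245 CPM in obese, 3116 CPM in CR), and lowest in type 1 dendritic cells, obese plasma cells (469 CPM), migratory dendritic cells (757 and 920 CPM) and B cells (1080 and 711 CPM). The few neutrophils held 5424 and 9247 CPM. Within classical monocytes, the 10th percentile, median and 90th percentile of cells were at 13.6, 32.5 and 52.8 UMIs per 10000 in obese, and at 12.7, 32.3 and 49.8 in CR. C1q macrophages spread more widely for their level, from 0.892 through 10.7 to 30.7 UMIs per 10000 in obese. Its partner Cacybp varied less over these classes, with 121 CPM in obese fibroblasts, 135 CPM in obese classical monocytes and 93 CPM in obese C1q macrophages.

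S100a10, the annexin A2 partner, was highest in fibroblasts (2272 CPM) and activated macrophages (2001 CPM) of the obese library and in group 2 innate lymphoid cells (1475 CPM), fibroblasts (1397 CPM), T cells (1270 CPM) and NK cells (1230 CPM) of the CR library, where the first 2 of these overlapped in their intervals. Of the gated group 2 innate lymphoid cells, 31 of 58 in CR and 10 of 27 in obese fell in the graph cluster of that name. S100a10 separated the 2 kinds of monocyte. Classical monocytes held 1220 CPM in the obese and 1078 CPM in the CR library, and patrolling monocytes, which crawl along vessel walls, were at 278 and 234 CPM. S100a10 was found in 91.9% and 93.2% of classical and in 47.9% and 37.2% of patrolling monocytes, which were shallower (medians of 3653 and 2994 UMIs), and after thinning in 66.5% and 70.3% against 28.6% and 21.8%. Its partner Anxa2 stood at 1254 and 1212 CPM in classical and 697 and 605 CPM in patrolling monocytes. The highest Anxa2 levels of classes with at least 50 cells were in lipid-associated macrophages (2535 CPM in obese, 1928 CPM in CR), where S100a10 was at 1131 and 930 CPM.

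S100a11 was low in 3 of the macrophage classes. C1q macrophages of the obese library held 319 CPM and those of the CR library 247 CPM, with 359 and 276 CPM in resident macrophages and 446 and 198 CPM in phagocytic macrophages. B cells, at 400 and 278 CPM, and obese plasma cells, at 304 CPM, were in the same range. Lipid-associated macrophages, the Gpnmb and Trem2 cells of obese fat, held 859 and 683 CPM, and classical monocytes, type 1 and type 2 dendritic cells and T cells ranged from 881 to 1193 CPM over both libraries. Fibroblasts held 2164 CPM in obese and 1720 CPM in CR, and neutrophils 4011 and 7942 CPM. For S100a11, the 32 CR mural cells were at 1675 CPM, with an interval overlapping that of CR fibroblasts. Its partner Anxa1 was also raised in lipid-associated macrophages, at 2378 and 2551 CPM against 509 and 517 CPM in C1q macrophages.

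S100a1 was higher in fibroblasts and macrophages than in monocytes, dendritic cells and lymphocytes. Fibroblasts led with 419 CPM in obese and 381 CPM in CR, followed in obese by phagocytic macrophages (264 CPM), lipid-associated macrophages (243 CPM) and resident macrophages (235 CPM), all 3 with overlapping intervals, then C1q macrophages (182 CPM) and activated macrophages (156 CPM). In CR, endothelial cells (258 CPM) followed fibroblasts, then phagocytic macrophages (252 CPM), lipid-associated macrophages (226 CPM) and mural cells (218 CPM), each with an interval overlapping the next. Classical monocytes held 106 CPM in obese and 103 CPM in CR. T cells held 20.8 CPM (14.8 to 28.3) and 22.3 CPM (14.1 to 33.5), with a UMI in 6.79% and 6.29% of cells. Of the 10 other S100 genes in the tables, S100a13 was found throughout (275 CPM over kept obese and 288 CPM over kept CR cells), S100a16 mainly in fibroblasts (656 and 427 CPM) and endothelial cells (268 and 365 CPM), against at most 22.1 CPM in any leukocyte class, and the remaining 8 were below 1 CPM over the kept cells of either library.

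Set against C1q macrophages of the same library, the most common obese class, between 2 and 5 members were called in classical monocytes, type 1 dendritic cells, T cells and fibroblasts. A gene counts as called where it is at least 2-fold apart, with 5 CPM added to each side, among genes with at least 20 UMIs over both groups and at least 50 CPM in 1 of them. S100a8 and S100a9 mostly failed these minimums, so 5 of the 7 members passed them except where stated. In classical monocytes 3 of the 5 tested members were called in obese, all higher: S100a4 by 1.78 on the log2 scale (1.69 to 1.87), S100a11 by 1.79 (1.69 to 1.88) and S100a6 by 1.28 (1.22 to 1.33), where 15.3% of 2670 tested genes were called. In CR, with 6 tested, 5 were called, all higher: S100a4 by 2.07 (1.86 to 2.28), S100a11 by 2.18 (1.98 to 2.39), S100a6 by 1.5 (1.40 to 1.61), S100a10 by 1.04 (0.87 to 1.2) and S100a8 by 1.85 (1.04 to 2.61), where 16.2% of 2865 genes were called. The S100a8 ratio stayed past 2-fold with graph clusters in place of the gate (1.53), without the cell filter (1.8) and with thinned cells (1.61), where the gene missed 1 of the minimums and so was not called. The S100a10 ratio was under 2-fold with clusters (0.85), with thinned cells (0.99), without the highest doublet scores (0.99) and with median-of-ratios size factors (0.82).

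In type 1 dendritic cells the same 4 members were called in both libraries, S100a1, S100a4 and S100a6 lower and S100a11 higher, against 29.1% of 2632 tested genes in obese and 29.7% of 2898 in CR. S100a4 was lower, with a log2 ratio of -2.59 in each library (-2.80 to -2.39 in obese, -3.05 to -2.15 in CR). S100a11 was higher by 1.88 (1.81 to 1.95) in obese and 2.25 (2.06 to 2.45) in CR. In T cells 2 of 5 members were called in obese (39.0% of 2963 genes) and 3 of 5 in CR (41.4% of 3251 genes). The obese count is close to that background. S100a1 was lower, at -2.86 (-3.25 to -2.48) and -2.50 (-3.06 to -1.95), S100a11 was higher by 1.63 (1.54 to 1.72) and 1.82 (1.61 to 2.02), and S100a10 passed 2-fold in CR alone, at 1.27 (1.12 to 1.42) against 0.93 (0.87 to 1.00) in obese. The difference between the libraries was not tested. In fibroblasts all 5 tested members were called in both libraries, against 39.7% of 3368 genes in obese and 39.9% of 3374 in CR. S100a11 was higher by 2.74 (2.65 to 2.84) and 2.78 (2.59 to 2.96), S100a6 by 1.91 and 1.94, S100a10 by 1.59 and 1.41 and S100a1 by 1.18 and 1.32, and S100a4 was lower, at -1.61 (-1.95 to -1.30) and -2.04 (-2.37 to -1.73).

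Of 15 partner, target and receptor genes of the members, 13 were tested in classical monocytes against C1q macrophages, and 2 were called in each library, a share close to the 15.3% and 16.2% of all tested genes. In obese, Cybb, a subunit of the phagocyte oxidase, was 2-fold higher (log2 1.01, 0.89 to 1.12) and Cd36, a scavenger receptor, lower (-1.37, -1.52 to -1.22). In CR, Anxa2 was higher (1.04, 0.88 to 1.2) and Cd36 lower (-1.95, -2.22 to -1.68). The median of the list was 0.23 in obese and 0.10 in CR, against 0.19 and 0.20 over all tested genes. Of the 12 tested in fibroblasts, 2 were higher and 2 lower in each library, a smaller share than the 39.7% and 39.9% called over all tested genes. Anxa1 was higher in both (log2 1.49 and 1.51), Ahnak, a large scaffold that binds the S100a10 and annexin A2 complex, in obese (1.03) and Bsg, a receptor reported for S100A9 in human cells, in CR (1.03), and Cd36 and Cybb were lower in both.

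Between the libraries, 11 classes were compared, with cycling and erythroid cells left out. Of these 11, phagocytic macrophages alone had 3 broadly found members past 2-fold together. This class was common in CR (552 of 2987 kept cells) and less so in obese (190 of 5262). In obese cells S100a4 was at 954 CPM (892 to 1020), in CR cells at 401 CPM (379 to 424), a log2 ratio of CR to obese of -1.24 (exact conditional 95% interval -1.36 to -1.11). S100a10 stood at 960 CPM (897 to 1026) and 456 CPM (433 to 480), a ratio of -1.07 (-1.19 to -0.94), and S100a11 at 446 CPM (403 to 491) and 198 CPM (183 to 214), a ratio of -1.15 (-1.33 to -0.97). S100a6 was at 2979 CPM (2867 to 3093) and 1884 CPM (1837 to 1933), a ratio of -0.66 (-0.72 to -0.59) that was under 2-fold. S100a1 was at 264 and 252 CPM, with a ratio of -0.07 (-0.28 to 0.14). So 3 of the 5 members tested were called, all lower in CR, where 2.33% of 2743 genes tested in this class were called. Over 13 other processing choices the ratio ran from -1.30 to -1.10 for S100a4, from -1.16 to -1.03 for S100a10 and from -1.32 to -0.98 for S100a11, which was under 2-fold with graph clusters in place of the gate.

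A smaller share of CR than of obese phagocytic macrophages had these transcripts, and a smaller share had many of them. After thinning, no S100a4 UMI was left in 40.0% of obese and 61.8% of CR cells, no S100a10 UMI in 40.5% and 61.1% and no S100a11 UMI in 58.9% and 81.0%. Cells with 4 or more S100a4 UMIs were 11.6% of obese and 3.08% of CR cells, and those with 4 or more S100a10 UMIs 9.47% and 3.08%. Unthinned, the median cell held 8.17 S100a4 UMIs per 10000 in obese and 2.62 in CR, and the 90th percentile 21.1 and 10.9. The phagocytic marker genes summed to a median of 220 UMIs per 10000 in obese and 205 in CR cells, the C1q list to 113 and 119, and the neutrophil list to 0 in both, and the median mitochondrial share was 2.08% and 2.07%. The median depth was 4380 UMIs in obese and 5251 in CR, and a single graph cluster, led by Fcgr4, Lipg and Cd300e, held 93.7% and 97.5% of the class. Whether the remaining differences between the cells of this class bear on the S100 levels was not tested.

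**Figure D3:**
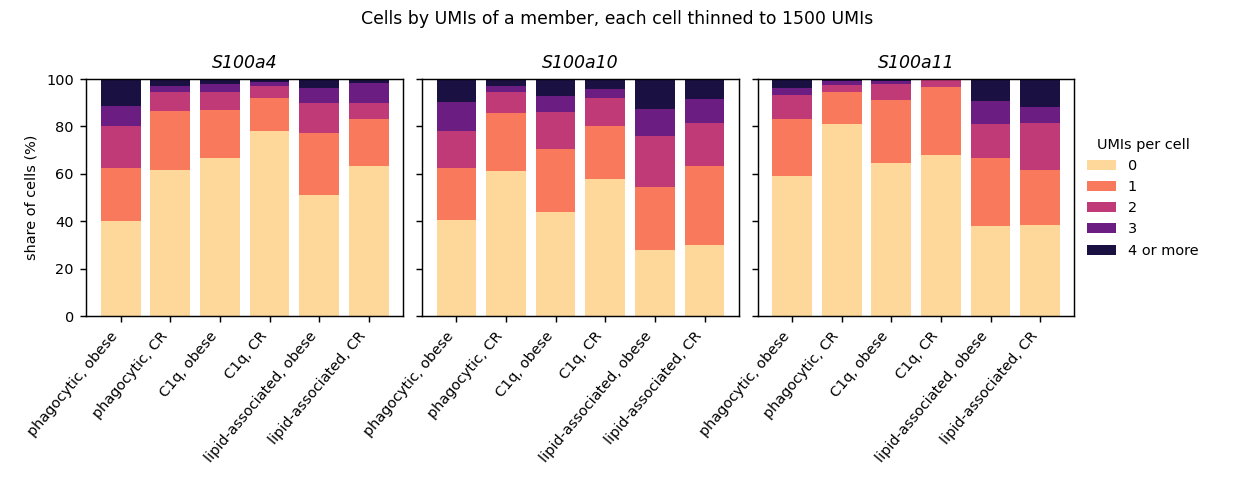
Shares of phagocytic, C1q and lipid-associated macrophages by their number of UMIs of S100a4, S100a10 and S100a11, each cell thinned to 1500 UMIs, with 1 stacked bar per class and library and the share of cells in percent on the vertical axis. In phagocytic macrophages the share without S100a4 is 40.0% in obese and 61.8% in CR, and the share without S100a11 58.9% and 81.0%; in lipid-associated macrophages the shares without S100a11 are 38.2% and 38.3%.

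A list of 10 calcium-binding and cytoskeletal genes of motile myeloid cells had a median below 0 in each of the 11 comparisons of CR with obese, from -0.05 in type 1 dendritic cells to -0.58 in B cells, where the medians of all tested genes lay between -0.02 and 0.14. The list was chosen with earlier results of these data known, and the comparisons share the same 2 libraries. Its medians are therefore a description and not independent support. Of the 10, all tested in phagocytic macrophages, Lsp1, an actin-binding leukocyte protein, was called lower (150 CPM in obese, 42.4 CPM in CR, log2 -1.71, -2.04 to -1.37) and none higher. The median of the list there was -0.53, against -0.01 over all tested genes. Vim (-0.52), Crip1 (-0.63), Coro1a (-0.58), Tagln2 (-0.56) and Actg1 (-0.54) were under 2-fold, and Lgals3 was near equal (4369 CPM obese, 4303 CPM CR, log2 -0.02). Of 13 tested partner genes, 1 was called, the scaffold Ahnak (201 and 92.7 CPM, log2 -1.08, -1.34 to -0.81), and the median was -0.24. The direct partners differed among themselves: Anxa2 had a ratio of -0.65 (-0.76 to -0.55), Anxa1 of 0.51 (0.36 to 0.67), and Cacybp (0.02, -0.25 to 0.30) and Myh9 (-0.07, -0.36 to 0.23) had intervals that held 0.

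S100a4 and S100a10 were lower in CR in each of the 11 classes compared. These had at least 50 cells in both libraries, and cycling and erythroid cells, which also did, were not compared. S100a4 stood at 708 and 438 CPM in obese and CR cycling cells and at 135 and 48.1 CPM in erythroid cells. Across the 11 classes compared, the ratio of S100a4 ran from -1.24 in phagocytic macrophages to -0.20 in type 2 dendritic cells. Its median was -0.60, and its interval was wholly below 0 in 10 of 11 classes. For S100a10 it ran from -1.07 to -0.18, with a median of -0.43 and 10 of 11 intervals below 0. Of 1396 genes tested in every one of these classes, 91 (6.52%) were lower in CR in all 11. A lower median ratio than that of S100a4 was found for 0.501% of these genes and a lower one than that of S100a10 for 1.00%. S100a6 was lower in 10 of 11 classes (median -0.26), the exception being type 1 dendritic cells (0.13, -0.01 to 0.27), and S100a11 in 7 of 11 (median -0.33). The median ratio of all tested genes lay between -0.02 and 0.14 over these classes. The classes share their library, so they are not independent of each other, and what differs between the 2 libraries other than diet cannot be told apart from it. With graph clusters in place of the gate, S100a4 and S100a10 were each lower in 10 of 11 classes, and with the other scalings and pseudocounts in all 11.

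**Figure D4:**
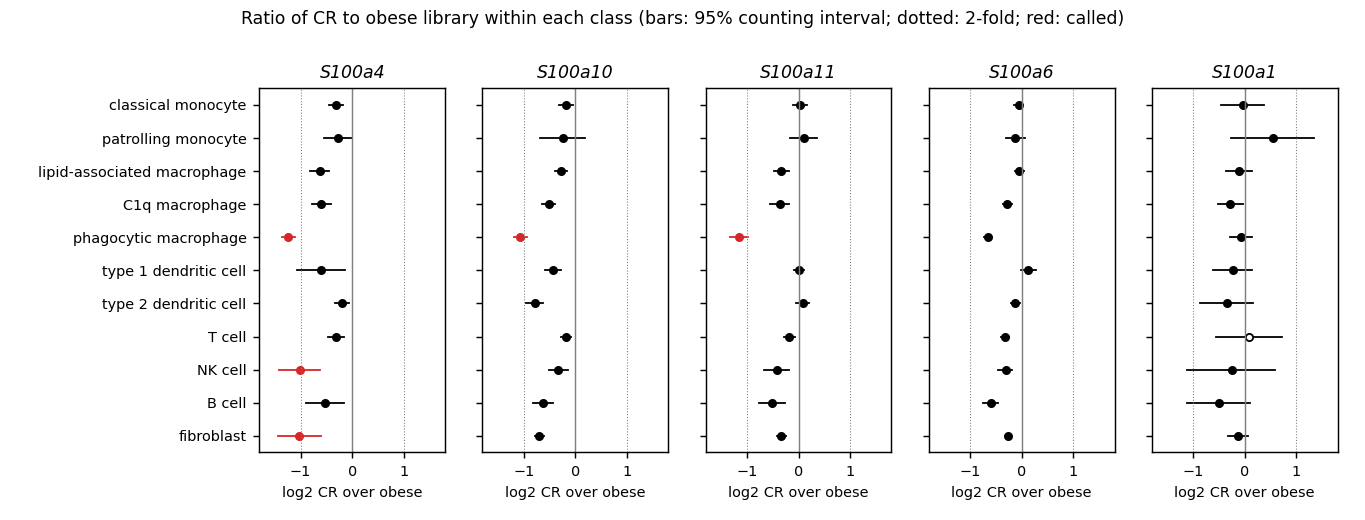
Log2 ratio of CR to obese CPM, with 5 CPM added to each side, for the 5 broadly found members in 11 classes. The classes reach 50 cells in both libraries, with cycling and erythroid cells left aside. Points are ratios, bars are exact conditional 95% intervals, dotted lines mark 2-fold, red marks a call and an open point a gene under the minimum counts. Every S100a4 and S100a10 point lies left of 0. Of the classes drawn, S100a4, S100a10 and S100a11 are all past 2-fold in phagocytic macrophages alone.

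In the other myeloid classes few members passed 2-fold. Of 5 tested members none was called in C1q macrophages (0.807% of 2477 genes called), lipid-associated macrophages (1.65% of 2545), type 1 dendritic cells (0.998% of 2404) or type 2 dendritic cells (1.79% of 2632). S100a4 had ratios of -0.60 (-0.79 to -0.41) in C1q and -0.63 (-0.82 to -0.45) in lipid-associated macrophages, and S100a10 had -0.78 (-0.95 to -0.62) in type 2 dendritic cells. S100a11 was close to equal in type 1 (0.01, -0.09 to 0.10) and type 2 dendritic cells (0.08, -0.05 to 0.20) and in classical monocytes (0.03, -0.10 to 0.16). In classical monocytes 1 of 6 tested members was called, S100a8, higher in CR (1.85, 1.10 to 2.55), where 2.35% of 2677 genes were called. With graph clusters the ratio was -0.24 and the call was lost. Without the cell filter (1.8) and with thinned cells (1.36) the ratio stayed past 2-fold, and the gene only missed the minimum of 50 CPM or of 20 UMIs (49.4 CPM in CR without the filter, 6 and 5 UMIs in CR and obese after thinning). In patrolling monocytes S100a8 (-3.11) and S100a9 (-2.18) were called lower in CR, with 5.45% of 2883 genes called, through the 2 obese cells described above, without which neither was called and S100a9 had a ratio of 0.33. A higher S100a8 in CR was not confined to classical monocytes. Over the 11 classes, S100a8 was higher in CR in 8 (median 0.62) and S100a9 in 8 (median 0.37). Apart from S100a8 in classical monocytes, these were under the minimum counts. Without the cells rich in the pair, S100a8 was higher in 9 of 11 classes and S100a9 in all 11. The cause was not tested.

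NK cells had S100a4 at 500 CPM (449 to 555) in the obese and 245 CPM (187 to 316) in the CR library, a ratio of -1.01 (-1.42 to -0.62), close to the 2-fold limit. S100a8 and S100a9 were called there too, through the single obese cell described above. No S100a8 UMI was found in the 71 CR NK cells, which allows up to 12.3 CPM (3 counts), against 113 CPM in obese, and S100a9 was at 95.7 and 12.3 CPM. Without the cell, S100a8 was at 4.30 CPM and S100a9 at 0 in obese NK cells. So 3 of 7 tested members were called in NK cells, where 4.39% of 2963 genes were, and 1 of them, S100a4, without that cell. With the highest doublet scores left out, or with graph clusters, none was, and the S100a4 ratio was -0.98 and -0.87. In fibroblasts S100a4 went from 116 to 54.3 CPM (-1.03, -1.44 to -0.61), 1 of 5 tested members, with 2.70% of 3147 genes called. The S100a4 ratio was under 2-fold with graph clusters (-0.78), without the highest doublet scores (-0.60), with per-cell CPM (-0.66), with thinned cells (-0.86), with 20 CPM added (-0.87) and with the wider gate margin (-0.96). The fibroblasts were spread over clusters in unlike shares: a cluster led by Pi16 and Clec3b held 29.5% of obese and 14.9% of CR fibroblasts, and 1 led by Dcn and Col3a1 held 69.5% and 83.8%. The part of these shares in the ratio was not tested. In fibroblasts S100a10 was at -0.70 (-0.79 to -0.61). None of the 4 tested members was called in T cells (2.02% of 2771 genes) and none of 5 in B cells (3.72% of 2607). B cells had S100a10 at -0.63 (-0.82 to -0.44), S100a6 at -0.60 (-0.75 to -0.45) and S100a11 at -0.51 (-0.76 to -0.27), and in them Anxa1 (221 and 72.1 CPM, -1.55) and Cd36 (223 and 76.0 CPM, -1.49) were the called partner genes. The T cells of the libraries were spread over clusters in unlike shares. A cluster led by Ccl5 and Cd8b1 held 41.7% of obese and 38.3% of CR T cells, whereas the next largest was led by Dapl1 and Lef1 in obese (20.8%) and by Tnfrsf4 and Izumo1r in CR (33.1%).

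The members did not vary as one. Over the 22 sums of 11 classes and 2 libraries, Pearson's r of log2(CPM + 5) was highest for S100a8 with S100a9 (0.80), which share the few rich cells, and for S100a6 with S100a10 (0.71), and was 0.47 for the neighbours S100a4 and S100a6 and 0.46 for the neighbours S100a10 and S100a11. S100a1 was at -0.09 with S100a4. Among 5221 genes outside the family, the most alike S100a4 were Casp1 (0.87), Eno1 (0.837), Slfn2 (0.803), Fam26f (0.785) and H2afj (0.783). For S100a6 they were Pigk (0.822), Gpx4 (0.783), Vmp1 (0.774), Tm9sf3 (0.771) and Myl12a (0.768), for S100a10 Bag1 (0.786), Lgals1 (0.780), Hdac2 (0.768), Sept11 (0.748) and Eny2 (0.738), and for S100a11 Arf5 (0.809), Sec61a1 (0.783), Sec61b (0.780), H13 (0.766) and Hsd17b10 (0.737). S100a1 was most like Nagk (0.929), Cmtm3 (0.928), Sept2 (0.911), Axl (0.910), which is 1 of the phagocytic gate genes, and Tmem205 (0.909). The sums share libraries and depth, and these values are a description. The sums of S100a8 and S100a9 in patrolling monocytes, NK cells and type 2 dendritic cells include obese cells rich in the pair, and Brap led for both (0.660 and 0.734), then Slc16a3, Midn, Trem3 and Srp9 for S100a8 and Midn, Tab2, Nabp1 and S1pr5 for S100a9.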

How the data were processed

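The authors aligned the reads to mm10 with Cell Ranger (2.2 in the methods) and deposited UMI counts per gene and cell barcode, made with the Chromium 3′ kit (chemistry 2). No authors' cell annotation was used. From the deposited counts, cells with at least 200 genes were kept where mitochondrial share and log10 UMI total were at most 3 scaled median absolute deviations above the median of their library (limits of 4.84% and 5.58% mitochondrial). Each cell took the class whose markers had the highest mean z-score (27 lists, 201 genes found), with a score of at least 0.4, a margin of at least 0.2 and at least 3 markers detected. These limits were set after seeing the data, and the members and lists were chosen with earlier results of these data known. S100 genes entered neither the gate nor the 38 graph clusters used as an alternative. Neutrophils, cycling and erythroid classes, and those under 20 cells, were left out of the ranking, and doublet scores were used only as an alternative. Cycling and erythroid classes were also left out of the ratios. UMIs were summed per class and library into CPM. The named genes were the 7 members, their fixed partner and receptor genes, partner and list genes at least 2-fold apart, and the 5 genes most alike each member. Vim, Crip1, Coro1a, Tagln2, Actg1 and Lgals3 were named with their values already in view. S100 promoters and gene coordinates came from RefSeq (GRCm38). With 1 library a condition, no p-value was computed over cells. The ratio and interval code was tested on simulated data. Python 3.11.15, numpy 2.4.6, scipy 1.17.1, python-igraph 0.11.9 and matplotlib 3.10.9 were used.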

Additional observations from a re-analysis of the deposited data

How the results depend on the processing

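Each choice was changed alone. Counting members called between CR and obese, the count in phagocytic macrophages, 3, became 2 with graph clusters, 4 at 1.5-fold and 0 at 3-fold, and was 3 under the other 10 choices. With graph clusters the count fell to 0 in classical and patrolling monocytes, NK cells and fibroblasts. With a wider gate margin it was 1 in NK cells and 0 in fibroblasts, and lipid-associated macrophages, with 38 CR cells, gave no value. Without the highest doublet scores it was 0 in NK cells and fibroblasts. It was 0 in classical monocytes without the cell filter and with thinned cells, where the S100a8 ratio (1.8 and 1.36) stayed past 2-fold and a minimum of counts was missed, and 0 in fibroblasts with per-cell CPM, thinned cells, 20 CPM added and a 3-fold threshold. Type 2 dendritic cells gained 1 call with thinned cells, without minimum counts and at 1.5-fold. At 1.5-fold, C1q and lipid-associated macrophages and type 1 dendritic cells had 1 call and B cells and fibroblasts 2. Without the cells rich in S100a8 and S100a9, an alternative chosen after seeing the data, the count was 0 in patrolling monocytes and 1 in NK cells. Against C1q macrophages, CR classical monocytes had 3 calls with clusters, with thinned cells and at 3-fold. T cells had 4 in obese with the wider margin, 4 and 5 in obese and CR with totals without ribosomal, mitochondrial and haemoglobin genes, and 5 and 5 at 1.5-fold, where obese classical monocytes also had 5. At 3-fold, type 1 dendritic cells had 2 in each library and CR fibroblasts 3. The cause of these shifts was not tested, other than the threshold itself.

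The ratio of CR to obese of called members changed sign for S100a8 in classical monocytes with clusters (-0.24) and in NK cells with clusters (0.24), and for S100a9 in NK cells with clusters (1.29), with the wider margin (1.52), without the highest doublet scores (1.88) and without the rich cells (1.79), and in patrolling monocytes without the rich cells (0.33). All reversals of called members concern the calprotectin pair at low counts. Ratios that were not called could change sign too. In patrolling monocytes S100a4 ran from -0.32 to 0.15 and S100a10 from -0.50 to 0.33 over 13 other choices. No paired analysis was possible because each condition has 1 library.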
